A study of Mus musculus with 6 samples.

Results

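The mitochondrial ribosome is described here through the nuclear genes of its own proteins, taken as every array probe whose gene name begins with Mrps (small subunit) or Mrpl (large subunit) followed by a number and, in some, a letter. This rule found 75 genes with 125 probes, among 27962 gene names and 41174 probes on the array. The small subunit had 29 genes and 50 probes, and the large subunit 46 genes and 75 probes. The livers came from SIRT1 LKO mice, in whose liver the gene of the NAD-dependent deacetylase SIRT1 was deleted, and from Lox control mice. All were males aged 10 weeks on a 95% C57BL/6 background and a chow diet, fed freely and killed at 4 pm. Neither the Cre driver nor the deleted exons are stated in the labels. RNA of 2 animals was combined in each pool, and 3 pools per genotype each went on a 1-colour Agilent array of the whole mouse genome, so the replicate is a pool and not a mouse.

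Mitochondria keep a small genome whose messenger RNAs all encode core subunits of the respiratory chain and ATP synthase, and a dedicated ribosome makes those proteins. The ribosomal RNAs of that ribosome come from mitochondrial DNA, whereas its proteins are all encoded in the nucleus, made in the cytosol and imported. Its proteins are in part relatives of bacterial ribosomal proteins and in part found only in mitochondria. In people, inherited loss of single members, among them MRPS7, MRPS16, MRPS22, MRPS34, MRPL3, MRPL12 and MRPL44, causes combined deficiency of the respiratory complexes. Liver is rich in mitochondria and depends on them for fatty acid oxidation, ketone production and the urea cycle.

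Each signal is the log2 intensity minus that of its array's 75th percentile, so 0 is the level of that percentile. Signals compare pools for 1 probe and do not rank genes, since probes differ in brightness. Differences are LKO minus Control, tested with limma over 23593 probes with p adjusted by Benjamini-Hochberg and called under 0.05. The 75th percentile itself lay between 1005 and 1056 intensity units on 5 arrays and at 1289 for LKO pool 3. The number of arrays limits the precision. LKO pools 1 and 2 shared a slide, LKO pool 3 lay on another, and the 3 Control pools lay together on a further slide, so no slide held both genotypes. LKO pool 3 stands apart in the deposit. Its scanner file and its column of the deposited value table were within 1% of each other for 0.853% of probes, against 99.8% in each of the other 5 samples, so results are also given without it or with the table. Sirt1 itself was at -0.07, 0.09 and 0.16 in the LKO pools, against 0.29, 0.37 and 0.24 in the Control pools, a difference of -0.24 (SE 0.10, adjusted p = 0.243) that did not pass. Whether this probe lies in the deleted stretch is unknown, so it does not check the labels. In whole liver, fewer cells of a type and less RNA per cell cannot be told apart. All 5 hepatocyte markers on the array were well above background on every array. In LKO 4 of them were higher and 1 lower, with a median difference of 0.15. Their sums were 1121 to 1352 times the percentile level in LKO pools and 1097 to 1233 in Control pools. The 7 Kupffer cell and macrophage genes measured were lower in LKO in 6 cases and summed to 31.5 to 34.1 times the percentile level in LKO pools and 25.3 to 44.2 in Control pools. Of the 4 adipocyte genes on the array, 1 was tested, and Lep was not above background on any array. All 4 together summed to 0.0458 to 0.150 in LKO pools and 0.276 to 1.09 in Control pools. For the 4 stellate cell and fibroblast genes the sums were 29.5 to 39.3 in LKO pools and 39.8 to 45.2 in Control pools. These did not overlap, though 3 of the 4 genes were higher in LKO. For the 5 pancreas genes on the array, of which 2 were tested, the sums did not overlap. They were 0.320 to 0.345 in LKO pools and 0.358 to 0.422 in Control pools. Ela2 and Pnlip, 2 of these 5, were not above background on any array. None of these markers passed, and their part in the results below was not tested.

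Transcripts of the mitochondrial ribosome were mostly well above background and differed little between the genotypes. Of the 125 probes, 116 were tested, and these covered all 75 genes. A probe was tested when all 3 arrays of either genotype had it well above background, and 114 member probes were so on all 6 arrays. The other 2 tested probes, the dimmer ones of Mrpl17 and Mrps25, entered through the arrays of 1 genotype. The 9 untested probes include 8 that target transcripts without a RefSeq accession, and 4 of the 9 were above background on at least 1 array. The genes lie on 17 chromosomes, with at most 10 on any one of them.

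No member passed the adjusted threshold, with adjusted p between 0.119 and 0.994 (limma, all pools). In the same fit 15 of all tested probes passed (0.0636%). At an unadjusted p under 0.05 there were 9 of 116 member probes (7.76%), 5 higher and 4 lower in LKO, against 21.2% of all tested probes (10.7% higher, 10.5% lower). The small subunit held 6 of these among its 46 tested probes, 3 in each direction. The large subunit held 3 among 70, with 2 higher and 1 lower. The 3 LKO values did not overlap the 3 Control values for 25 of 116 member probes, or 21.6%, against 28.9% of all tested probes. Of these, 12 were higher (14.9% of all tested probes were) and 13 lower (13.9% of all were).

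The differences were also small in size. The median difference was 0.04 for small subunit probes (31 higher, 15 lower) and 0.02 for large subunit probes (38 higher, 32 lower), beside 0.02 for all tested probes, of which 52.7% were higher. Under quantile normalization the small and large subunit medians were -0.000848 and -0.02, beside 0.0050 for all tested probes. With normexp background correction they were -0.01 and -0.06, beside 0.09 for all tested probes. The sign of neither subunit's median thus holds across scalings. The median size of the difference, regardless of sign, was 0.10 for the members and 0.19 for all tested probes. The median spread between pools of a genotype was likewise lower, with an SD of 0.11 for members and 0.17 for all. The 95% interval of the difference lay within 1.5-fold in either direction for 106 of 116 member probes (91.4%), against 55.4% of all tested probes. Only 1 member probe differed by more than 1.5-fold, as 9.24% of all tested probes did, and its value rests on a saturated spot described below. For most members, then, an LKO minus Control difference above 1.5-fold lies outside the interval, and many smaller ones lie within it. The fit had no slide term and no slide held both genotypes, so genotype and slide cannot be told apart in this interval.

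**Figure D1:**
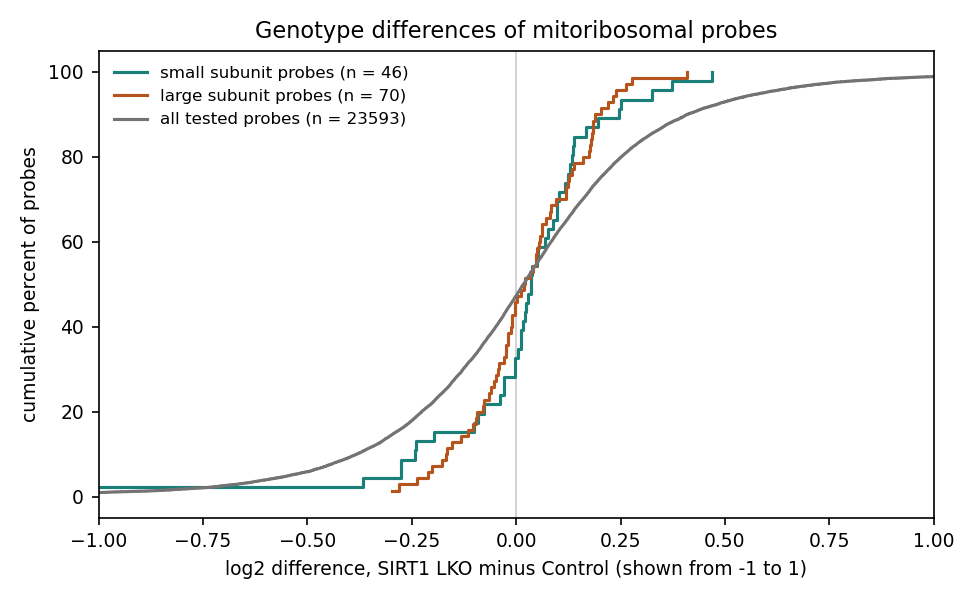
Cumulative percent of probes (vertical axis) by log2 difference, SIRT1 LKO minus Control (horizontal axis, from -1 to 1), for 46 small subunit probes, 70 large subunit probes and all 23593 tested probes. Both subunit curves are steeper than the curve of all probes around medians of 0.04 and 0.02; the Mrps2 probe with the saturated spot, at -2.17, lies off the axis.

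Other sets of nuclear genes give a scale. The 126 tested probes of cytosolic ribosomal proteins had a median difference of 0.07, with 8 higher and 1 lower at an unadjusted p under 0.05, and the 101 probes of nuclear oxidative phosphorylation subunits had 0.04, with 4 higher and 3 lower. That is 7.14% and 6.93% of their probes, against 21.2% of all tested probes. None passed the adjusted threshold in either set. Within the mitochondrial ribosome, proteins with bacterial relatives had medians of 0.03 in the small subunit (26 probes) and 0.03 in the large (41 probes). The remaining proteins, classed as mitochondrial by the naming of ribosome structures although some have distant bacterial relatives, had 0.04 (20 probes) and 0.00 (29 probes). The gene symbols do not always follow the structure. The products of Mrps18a and Mrps30 are built into the large subunit, and placing their probes there left the medians at 0.04 and 0.02.

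Both subunits had the same lowest pool in each genotype. Taken relative to each probe's Control mean, the median small subunit probe stood at 0.10, 0.09 and -0.07 in LKO pools 1, 2 and 3, against -0.07, 0.02 and 0.04 in Control pools 1, 2 and 3. For the large subunit the medians were 0.05, 0.06 and -0.09 in the LKO pools, against -0.07, 0.03 and 0.04 in the Control pools. LKO pool 3 was the lowest of its genotype for 88 of 116 member probes (75.9%), against 44.9% of all tested probes. Control pool 1 was the lowest of its genotype for 94 (81.0%), against 35.7% of all. Oxidative phosphorylation subunits had their lowest medians in the same pools, at -0.06 in LKO pool 3 and -0.09 in Control pool 1. So did cytosolic ribosomal proteins, at -0.02 in LKO pool 3 and -0.08 in Control pool 1. The order depends on the background treatment: with normexp the lowest LKO pool was pool 1, at -0.19 for the small and -0.24 for the large subunit. Under normexp the median of all tested probes was 0.25 in LKO pool 1, against -0.06 and -0.08 in LKO pools 2 and 3.

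**Figure D2:**
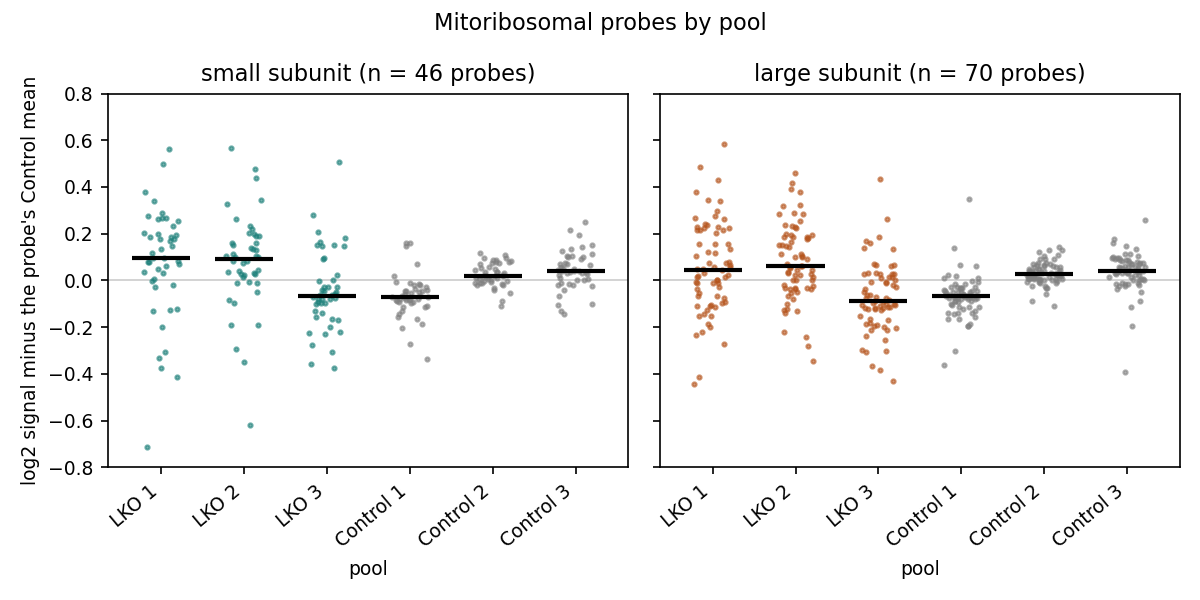
Each point is 1 tested probe of the small subunit (46) or large subunit (70), as log2 signal minus the probe's mean over the 3 Control pools (vertical axis), for each pool (horizontal axis); black lines are medians. LKO pool 3 and Control pool 1 have the lowest medians, between -0.07 and -0.09, and the Mrps2 probe with a saturated spot lies off the axis.

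Results that involve LKO pool 3 shifted with it. Without it, the medians were 0.10 for the small and 0.06 for the large subunit, beside 0.02 for all tested probes. In that fit 7 small subunit probes were higher and 4 lower at an unadjusted p under 0.05, and 12 large subunit probes were higher and 3 lower (of all tested probes 16.5% were higher and 14.1% lower). Still 0 of 116 members passed the adjusted threshold, while 698 of all tested probes did (2.96%). With this pool taken from the deposited value table, the medians were 0.08 and 0.03, with 5 higher and 3 lower in the small subunit and 9 higher and 3 lower in the large (14.7% and 11.5% of all tested probes). There too 0 members passed in limma, against 1.25% of all tested probes. A fit that weights arrays gave LKO pool 3 the weight 0.261, against up to 2.99 for Control pool 2, and called 20.4% of all tested probes. It called 8 members, namely Mrps21, Mrps33, Mrps7, Mrps14, Mrps2, Mrpl15, Mrpl1 and Mrpl37.

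The small subunit binds messenger RNA and reads its codons. Its members with the smallest p among those higher in LKO were Mrps21, Mrps33 and Mrps7. Mrps21, a relative of a bacterial small subunit protein, had signals of 2.60, 2.61 and 2.33 in the LKO pools, against 1.96, 1.94 and 2.24 in the Control pools. All LKO pools lay above all Control pools, with LKO pool 3 nearest to them. The difference was 0.47 (SE 0.13, adjusted p = 0.133), or 1.38-fold, and 0.56 without LKO pool 3 (adjusted p = 0.0613). Mrps7, whose protein contacts the ribosomal RNA in the head of the subunit, had 2.81, 2.79 and 2.46 in the LKO pools, against 2.30, 2.42 and 2.21 in the Control pools at its probe A_51_P193302. LKO pool 3 lay just above the highest Control pool, with a difference of 0.37 (SE 0.13, adjusted p = 0.179). Another Mrps7 probe, A_52_P26859, differed by 0.07 (SE 0.10, adjusted p = 0.737) and by -0.24 under normexp. The difference at the first Mrps7 probe was not matched in size at the second.

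Mrps33, known only from mitochondrial ribosomes, had -0.02, 0.04 and -0.24 in the LKO pools, against -0.45, -0.38 and -0.37 in the Control pools at probe A_52_P342896. The groups did not overlap, and the difference was 0.33 (SE 0.11, adjusted p = 0.164). This probe joins parts of the transcript 3002 bases apart on chromosome 6 (39732538 to 39735539, mm7), so it spans at least 1 splice junction. The 2 other Mrps33 probes differed by 0.10 and 0.01. The one at 0.01, A_52_P579658, spans nearly the same stretch (39732529 to 39735414), so it too crosses a junction. Mrps17, another relative of a bacterial protein, had 1.14, 1.18 and 1.14 in the LKO pools, against 0.910, 0.965 and 0.997 in the Control pools. The groups did not overlap, and its difference was 0.20 (SE 0.08, adjusted p = 0.250), with a second probe at 0.12.

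Among small subunit members lower in LKO, Mrps27 and Mrps14 had single tested probes. Mrps27, an RNA-binding protein of the pentatricopeptide repeat family, had 0.44, 0.55 and 0.51 in the LKO pools, against 0.67, 0.71 and 0.84 in the Control pools. The groups did not overlap, and the difference was -0.24 (SE 0.10, adjusted p = 0.220). Mrps14 had 2.14, 2.18 and 2.38 in the LKO pools, against 2.43, 2.47 and 2.51 in the Control pools, a difference of -0.24 (SE 0.10, adjusted p = 0.239). LKO pool 3 came closest to the Control pools, and without it the difference was -0.31 (adjusted p = 0.0806). Mrps18a, Mrps18b and Mrps18c encode 3 related proteins, of which that of Mrps18c is counted here with the bacterial families. The brighter Mrps18b probe differed by -0.20 (SE 0.12, adjusted p = 0.388), or -0.12 without LKO pool 3, and 1 Mrps18c probe by 0.25 (SE 0.12, adjusted p = 0.276, groups not overlapping) beside 0.02 at the other. The Mrps18a probe differed by 0.12 (SE 0.12, adjusted p = 0.601), or 0.21 without LKO pool 3. None of the 3 passed.

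**Figure D3:**
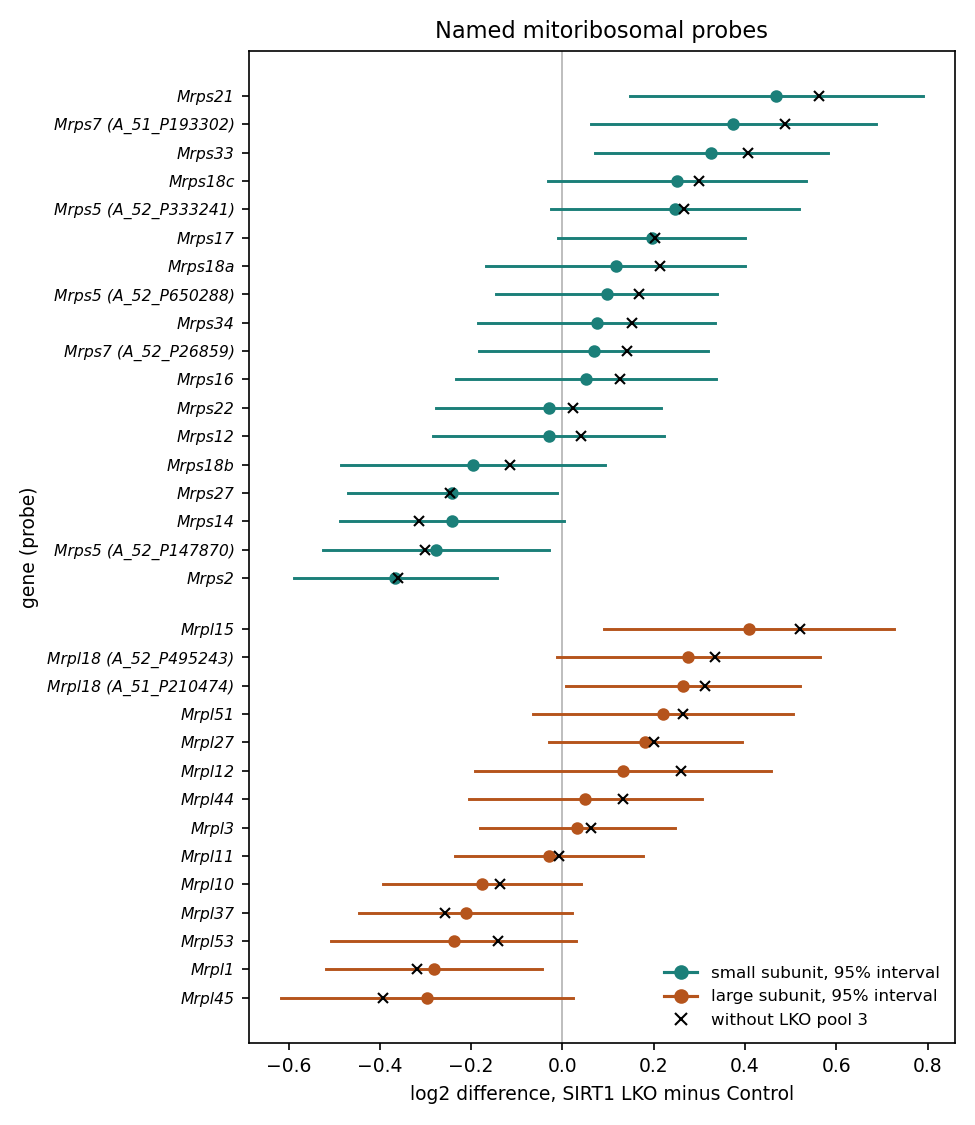
Log2 difference, SIRT1 LKO minus Control (horizontal axis), with its 95% interval for each named mitoribosomal probe (vertical axis), small subunit above and large subunit below; crosses give the difference without LKO pool 3. The differences run from -0.37 (Mrps2) to 0.47 (Mrps21), and no probe passed the adjusted threshold.

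The probes of 1 gene did not always point the same way. Of 28 genes with more than 1 tested probe, 16 had all differences of the same sign and 12 had both signs, and in 0 did probes of opposite sign both reach an unadjusted p under 0.05. The probe sequences below show where those of Mrps5, Mrps2 and Mrpl45, which differed most, bind. Mrps5 encodes a protein at the messenger RNA entrance of the small subunit, and 3 of its probes lie on chromosome 2 within the RefSeq transcript, given in order of position (mm7).
Mrps5 A_52_P147870 (chr2:127331631-127332722): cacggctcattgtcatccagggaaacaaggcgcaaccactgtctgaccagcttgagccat
Mrps5 A_51_P493270 (chr2:127341716-127342266): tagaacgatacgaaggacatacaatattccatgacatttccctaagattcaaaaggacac
Mrps5 A_52_P650288 (chr2:127344482-127344541): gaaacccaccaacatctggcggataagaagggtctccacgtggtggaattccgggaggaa
Mrps2 A_52_P405955 (chr2:28477336-28477395): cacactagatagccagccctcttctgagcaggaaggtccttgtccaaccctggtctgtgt
Mrpl45 A_51_P324592 (chr11:97432927-97432986): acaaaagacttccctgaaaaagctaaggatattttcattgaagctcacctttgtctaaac
All are the 60-base probes of the array design. The first 2 of Mrps5 map over 1092 and 551 bases, so each crosses a splice junction.

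At the probe A_52_P147870, Mrps5 had -0.52, -0.30 and -0.33 in the LKO pools, against -0.04, -0.11 and -0.18 in the Control pools. Every LKO pool was below every Control pool, with a difference of -0.28 (SE 0.10, adjusted p = 0.201). The next probe, A_51_P493270, had 2.46, 2.32 and 2.28 in the LKO pools, against 2.07, 2.17 and 2.31 in the Control pools, a difference of 0.17 with overlapping groups. The third, A_52_P650288, differed by 0.10 (SE 0.10, adjusted p = 0.610). A further probe, A_52_P333241, targets a transcript without a RefSeq accession at the same locus and differed by 0.25 (SE 0.11, adjusted p = 0.268). The range over the probes of this gene was 0.52. Without a genome, the exons are not numbered and other binding sites of a probe were not searched.

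Mrpl45, which sits at the exit of the peptide tunnel next to the inner membrane, had -0.99, -0.90 and -0.66 in the LKO pools, against -0.62, -0.66 and -0.38 in the Control pools at A_51_P324592. The groups barely overlapped, and the difference was -0.30 (SE 0.13, adjusted p = 0.261), or -0.46 with the value table (adjusted p = 0.0840). The other Mrpl45 probe, A_52_P85983, had 4.03, 4.11 and 3.63 in the LKO pools, against 3.52, 3.71 and 3.83 in the Control pools. It differed by 0.23 (SE 0.16, adjusted p = 0.432), opposite in sign to the first.

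Mrps2 encodes a relative of a bacterial protein of the small subunit body. Its dimmest probe, A_52_P181128, had -3.98, -3.96 and -3.98 in the LKO pools, against -3.62, -3.70 and -3.51 in the Control pools. The LKO pools were below every Control pool, and the difference of -0.37 (SE 0.09, adjusted p = 0.119) carried the smallest adjusted p of all members. With the value table LKO pool 3 was at -3.59, above Control pools 1 and 2, and the difference was -0.24 (adjusted p = 0.297). It was 0.09 under normexp, which treats dim spots differently, and the brightest Mrps2 probe, A_52_P367565, differed by -0.08 (SE 0.10, adjusted p = 0.692). The remaining probe, A_52_P405955, was chosen for mention after its values were seen. It had -0.51, -0.36 and -0.50 in the LKO pools, against -0.35, -0.27 and 5.75 in the Control pools. The last value comes from a spot with 57034 intensity units, where 36 of 52 pixels were saturated and the scanner software set no outlier flag, while the other 5 arrays had 708 to 911 units. Its difference of -2.17 (SE 1.58, adjusted p = 0.462) rests on that spot alone.

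**Figure D4:**
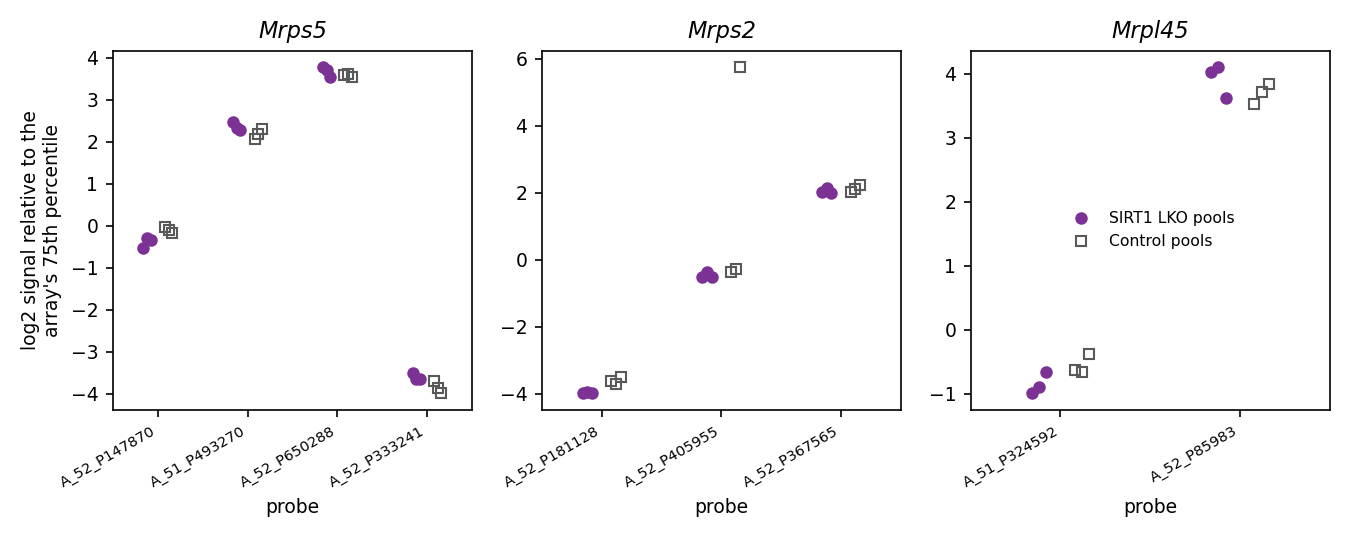
Log2 signal minus the array's 75th percentile (vertical axis) for each tested probe (horizontal axis) of Mrps5, Mrps2 and Mrpl45, with filled circles for the 3 SIRT1 LKO pools and open squares for the 3 Control pools. The differences of the probes run from -0.28 to 0.25 for Mrps5 and from -0.30 to 0.23 for Mrpl45, while those of Mrps2 are all negative and 1 Control pool stands alone at 5.75 for Mrps2.

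Other small subunit members were named for their known roles, without regard to their result. Mrps12, the decoding centre protein, differed by -0.03 (SE 0.11, adjusted p = 0.894), with 4.36, 4.43 and 4.18 in the LKO pools, against 4.27, 4.40 and 4.40 in the Control pools. Mrps16 differed by 0.05, Mrps22 by -0.03 and Mrps34 by 0.08, with adjusted p between 0.722 and 0.891. The signs for Mrps12, Mrps16 and Mrps22 turned under other scalings, with the value table or with a pool left out. Mrps36, whose product was later found with the oxoglutarate dehydrogenase complex, differed by 0.0038 and -0.0019 at its 2 probes.

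The large subunit holds the peptidyl transferase centre and the peptide exit tunnel. Mrpl15, a relative of a bacterial protein of the subunit core, had 2.56, 2.43 and 2.16 in the LKO pools, against 1.88, 1.95 and 2.08 in the Control pools. The groups did not overlap, with LKO pool 3 just above Control pool 3, and the difference was 0.41 (SE 0.13, adjusted p = 0.162). With the value table LKO pool 3 was at 2.03, below Control pool 3, and the difference was 0.37 (adjusted p = 0.194). Mrpl18 belongs to the central protuberance, the part of the large subunit that faces the small one at the top. It had 4.26, 4.21 and 4.09 in the LKO pools, against 3.79, 3.97 and 4.02 in the Control pools at A_51_P210474. Its 3 probes differed by 0.26 (SE 0.11, adjusted p = 0.226), 0.28 and 0.16, all higher in LKO.

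Mrpl27, known in bacteria to reach towards the peptidyl transferase centre, had 4.93, 4.91 and 4.86 in the LKO pools, against 4.67, 4.78 and 4.70 in the Control pools. The difference was 0.18 (SE 0.09, adjusted p = 0.289) without overlap. Mrpl51, found only in mitochondria, differed by 0.22 (SE 0.12, adjusted p = 0.328), and its LKO pool 3, at 5.13, lay at the level of Control pool 3. Without Control pool 1 the difference was 0.12. These genes make up the 5 large subunit probes with the smallest p among those higher in LKO.

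On the lower side, Mrpl1 forms the mobile stalk near the exit site of transfer RNA. It had 2.39, 2.59 and 2.60 in the LKO pools, against 2.77, 2.81 and 2.84 in the Control pools. All LKO pools were lower, and the difference was -0.28 (SE 0.10, adjusted p = 0.183), with its other probes at -0.12 and -0.05. Mrpl37, known only from mitochondria, had 1.62, 1.57 and 1.73 in the LKO pools, against 1.76, 1.89 and 1.91 in the Control pools, a difference of -0.21 (SE 0.10, adjusted p = 0.267). Mrpl53 had 4.63, 4.65 and 4.35 in the LKO pools, against 4.78, 4.78 and 4.79 in the Control pools. Its Control pools were nearly equal, and the difference was -0.24 (SE 0.11, adjusted p = 0.275), or -0.14 without LKO pool 3.

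Several proteins form the stalk that recruits translation factors. Mrpl10, at its base, differed by -0.18 (SE 0.09, adjusted p = 0.309), or -0.07 with the value table. Mrpl12, of the stalk itself and also described as a partner of the mitochondrial RNA polymerase, had 6.23, 6.16 and 5.81 in the LKO pools, against 5.86, 5.95 and 6.01 in the Control pools. Its LKO pools 1 and 2 were above all Control pools and pool 3 below them. The difference was 0.13 (SE 0.13, adjusted p = 0.600), 0.26 without LKO pool 3 and -0.19 under normexp. Mrpl11, where the stalk joins the subunit, differed by -0.03 (SE 0.09, adjusted p = 0.870). Mrpl3, near the peptidyl transferase centre, differed by 0.03 at the probe with the highest signal and by -0.09 to 0.07 over its 4 probes, and Mrpl44, with a fold related to ribonuclease III, by 0.05 and by -0.17 to 0.05 over 3 probes. None of these passed. The signs for Mrpl11, Mrpl3 and Mrpl44 also turned under other settings.

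Mitochondrial translation needs further proteins, which were counted from lists by function. Ribosomal proteins under other names had 10 tested probes, 9 of them higher, with a median of 0.07. Of these 0 reached an unadjusted p under 0.05, against 21.2% of all tested probes. Without LKO pool 3, 5 did, all higher, against 16.5% of all tested probes. Dap3, a GTP-binding protein of the small subunit, had 4.81, 4.67 and 4.55 in the LKO pools, against 4.44, 4.41 and 4.49 in the Control pools (difference 0.23, SE 0.10, adjusted p = 0.264). Chchd1, also of the small subunit, differed by 0.29 (adjusted p = 0.299).

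Translation factors had 19 tested probes, 6 higher and 13 lower, with a median of -0.05, and 1 was higher and 3 lower at an unadjusted p under 0.05 (21.1%, against 21.2% of all tested probes). Mtif2, the initiation factor that places the first transfer RNA, had 0.21, 0.41 and 0.53 in the LKO pools, against 1.24, 0.94 and 0.83 in the Control pools. All LKO pools were below all Control pools, and the difference was -0.62 (SE 0.14, adjusted p = 0.107), or 1.53-fold lower. Its second probe differed by -0.43 (SE 0.12, adjusted p = 0.136) in the same direction. Tsfm, the exchange factor of the elongation factor Tufm, differed by 0.45 (SE 0.19, adjusted p = 0.233) with overlapping groups. None of the factors passed.

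Factors of ribosome assembly and ribosomal RNA modification had 25 tested probes with a median of -0.02, 3 higher and 3 lower at an unadjusted p under 0.05 (24.0%, against 21.2% of all tested probes). Mrm1, a methyltransferase of the large ribosomal RNA, had 1.27, 1.36 and 1.24 in the LKO pools, against 0.79 in each Control pool. Its difference was 0.50 (SE 0.09, adjusted p = 0.0791), and it passed without LKO pool 3 (adjusted p = 0.0492) and when the value table supplied that pool (adjusted p = 0.0492). Mterfd1, an assembly factor of the large subunit, had -0.72, -0.96 and -1.14 in the LKO pools, against -1.48, -1.60 and -1.75 in the Control pools, a difference of 0.67 (SE 0.14, adjusted p = 0.0944). LKO pool 3 was at -1.48 in the value table, where the difference was 0.55 (adjusted p = 0.154). The pseudouridine synthase relatives Trub2 and Rpusd3 differed by -0.37 (SE 0.10, adjusted p = 0.132) and -0.31 (SE 0.10, adjusted p = 0.164).

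Mitochondrial aminoacyl-tRNA synthetases and related enzymes, which charge the transfer RNAs, had 27 tested probes with a median of -0.10, 8 higher and 19 lower. At an unadjusted p under 0.05, 1 was higher and 6 lower (25.9%, against 21.2% of all tested probes, 10.7% higher and 10.5% lower). Qrsl1, a subunit of the enzyme that makes glutaminyl-tRNA, had 0.07, -0.10 and -0.04 in the LKO pools, against 0.38, 0.51 and 0.62 in the Control pools. Fars2, for phenylalanine, had 1.83, 1.87 and 1.98 in the LKO pools, against 2.28, 2.34 and 2.37 in the Control pools. Neither pair of groups overlapped, and the differences were -0.53 (SE 0.11, adjusted p = 0.0880) and -0.44 (SE 0.09, adjusted p = 0.0938). Mars2, for methionine, differed by 0.34 (SE 0.12, adjusted p = 0.177). None passed with all pools, and Iars2 alone passed without LKO pool 3.

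Many members share a start region with a neighbour, which sets which transcripts can be compared side by side. RefSeq promoters (GRCm38.p6) were matched for 66 of the 75 genes by symbol. In 25 of the 66 (37.9%) another gene started within 1000 bases on the opposite strand and ran the other way, as did 12.2% of all 27025 genes of that table. Mrps11 and Mrpl46, of the 2 different subunits, start 42 bases apart, and Mrps12 starts 147 bases from Sars2, the mitochondrial seryl-tRNA synthetase. The sequences below run 5′ to 3′ towards the Mrps gene, with the stretch between both starts in capitals.
Mrps11 (chr7:78783074-78783145, plus strand): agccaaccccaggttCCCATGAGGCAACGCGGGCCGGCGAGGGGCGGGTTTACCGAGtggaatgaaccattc
Mrps12 (chr7:28741807-28741983, minus strand): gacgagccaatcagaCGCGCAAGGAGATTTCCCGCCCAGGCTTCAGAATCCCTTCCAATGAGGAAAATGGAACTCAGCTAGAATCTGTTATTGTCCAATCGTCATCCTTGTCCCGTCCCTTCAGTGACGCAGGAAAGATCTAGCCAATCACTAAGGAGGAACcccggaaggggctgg
Mrps11 differed by 0.03 (SE 0.12, adjusted p = 0.916) and Mrpl46 by 0.00 (SE 0.09, adjusted p = 0.990). Mrps12 differed by -0.03 and Sars2 by 0.06 (SE 0.10, adjusted p = 0.746). Both pairs thus lay near 0. For Mrpl43 and Twnk, which encodes the mitochondrial DNA helicase and starts 116 bases away, the differences were 0.02 and -0.18 (SE 0.14, adjusted p = 0.487). For Mrpl18 and the chaperonin subunit gene Tcp1, 238 bases apart, they were 0.26 and -0.05 (SE 0.12, adjusted p = 0.860).

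Letters of 4 motifs were searched on both strands of each promoter, from 250 bases before the start to 50 after. The letters GCGC and TGCGC with any 1 base between them, of nuclear respiratory factor NRF1, were in 12 of 66 members (18.2%), against 5.19% of all genes. CCGGAAG, of the ETS family that includes GABPA, was in 24 (36.4%), against 9.93% of all. In all, 33 members held at least 1 of these and 3 held both. CCAAT was in 39.4% of members and 41.1% of all genes, and TATAAA in 7.58% of members and 15.7% of all. The stretch between Mrps11 and Mrpl46 holds none of the first 3, while that between Mrps12 and Sars2 holds CCAAT, and CCGGAAG follows it after the Mrps12 start. The windows of head-to-head partners overlap, so these genes are not independent. A match says only that the letters are present.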

How the data were processed

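The authors hybridised Cy3-labelled RNA (500 ng per pool) and deposited scanner files of spot intensity written by Agilent Feature Extraction (version 9.5 per the submitters' processing notes), with signals background-subtracted within the array, per the file headers. Their deposited value table holds linear intensity made with the Rosetta Resolver error model, per the labels, unscaled between arrays. The 0 or 1 spot flags (a score) come from the deposited scanner files. The scale, centring and direction of the value table are those of the scanner signal in 5 samples; what was done to LKO pool 3 is not stated in the labels or headers. Its column medians were 62.0, 62.5 and 62.6 in LKO pools 1 to 3, and 74.5, 62.5 and 62.9 in Control pools 1 to 3.

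Control spots were left out, outlier spots set missing, spots of a probe averaged after log2, and the 75th percentile of each array subtracted. The genotype effect was fitted with limma 3.58.1 in R 4.3.3, without covariates, over all probes well above background on all 3 arrays of a genotype. Nothing in the labels says that pools are otherwise independent, so p-values measure the spread between these arrays. Members, gene lists and the bacterial or mitochondrial classes were chosen with earlier results of these data known; the classes come from structural knowledge. Members named are, for each subunit, the 5 smallest p in each direction and genes named for their role, and for other lists the 2 smallest p in each direction. Names are those of the files; 105 member probes matched a RefSeq accession, all with the same symbol. Simulated data (10 simulations, 200 changed of 23546 probes) had independent noise on each array and no slide effect. On them the fit of LKO against Control found 15% of the changes at 1.5-fold, 54.1% at 2-fold and 86.2% at 4-fold. False calls there were 6.8 on average. In the real arrays no slide held both genotypes, so these rates do not cover variation between slides. Figures were drawn with matplotlib 3.10.9.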

Additional observations from a re-analysis of the deposited data

How the results depend on the processing

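Over 18 other settings, the 33 named probes gave 586 values, of which 559 kept their direction and their side of the threshold, 8 passed the threshold with array weights and 19 turned sign. With 3 pools a genotype, and 2 of the LKO arrays on 1 slide, differences of under 1.5-fold are mostly beyond reach. The count of all probes past the threshold, 15 with all pools, was 0 with normexp (limma, 1568 at an unadjusted p under 0.05), 0 without a filter on dim probes (6859 at an unadjusted p under 0.05), 49 for probes above background on all arrays, 24 with 1 probe per gene, 0 with the slide as a random block (2632 at an unadjusted p under 0.05), 91 with an intensity trend and robust variance, 4817 with array weights, 294 with the value table and 0 to 698 with a pool left out, the highest without LKO pool 3. The small subunit count at an unadjusted p under 0.05, 6 with all pools, was 1 with normexp, 3 with 1 probe per gene, 2 with the slide as a block, 14 with array weights and 2 to 11 with a pool left out. The large subunit count, 3 with all pools, was 7 with quantile normalization, 0 with the slide as a block, 7 with the intensity trend, 18 with array weights, 12 with the value table and 0 to 15 with a pool left out. The highest counts with a pool left out were without LKO pool 3. The large subunit median was -0.058 with normexp, beside 0.093 for all tested probes.

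The replicate block, which fits the pool number, gave 0 calls over all probes. In limma, 4366 of all tested probes (18.5%) were at an unadjusted p under 0.05, with 4 small and 2 large subunit probes among them. Deviations of same-numbered pools from their group means correlated at 0.0090, -0.043 and -0.093 across probes. Pools of different number correlated at -0.080 to 0.13. These values give no sign of a pairing by number, but with 3 pools a genotype they cannot exclude one.

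Signs turned as follows. With normexp the differences were 0.093 (Mrps2, A_52_P181128), -0.24 (Mrps7, A_52_P26859), -0.017 (Mrps16), -0.088 (Mrpl3) and -0.19 (Mrpl12). With quantile normalization they were -0.0022 (Mrps16), -0.0079 (Mrpl3) and -0.012 (Mrpl44). With the value table they were 0.021 (Mrps12), 0.022 (Mrps22) and 0.0070 (Mrpl11), and with array weights 0.0064 (Mrps12). With a pool left out, the differences ranged from -0.082 to 0.040 for Mrps12, -0.026 to 0.13 for Mrps16, -0.085 to 0.023 for Mrps22, -0.0010 to 0.062 for Mrpl3 and -0.0019 to 0.13 for Mrpl44. The cause was not tested.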
